A study of Mus musculus with 2 samples.

Results

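Mesothelial cells, the flat cells that line the outer surface of the lung, made up 225 of the 45824 cells kept from 2 single-cell RNA-seq libraries of bleomycin-injured mouse lung. They numbered 73 of 30187 kept cells in the *Pclaf* WT library and 152 of 15637 in the *Pclaf* KO library. A kept cell had more than 200 and fewer than 5000 genes detected and under 20% of its unique molecular identifiers (UMIs, counted transcripts) from mitochondrial genes. A mesothelial cell had at least 2 of *Msln*, *Upk3b*, *Wt1* and *Lrrn4* detected, under 5% of its UMIs from *Sftpc*, and 0 UMIs of *Ptprc*, *Pecam1*, *Cdh5* and *Foxj1*, so the levels of these 9 genes chose the cells and are given below only as a description.

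Both libraries came from lungs 1 week (7 dpi) after bleomycin, which the series text gives as 1.35 U/kg, in mice 8 to 10 weeks old. One group was *Pclaf* WT, the other *Pclaf* KO, in which the gene for a PCNA-associated factor of DNA replication is disrupted, and both received bleomycin, so no uninjured lung was compared. Digested lung was sorted for Epcam+ CD31-/CD45- cells, an epithelial gate, before droplet capture. Each genotype was a single library, the number of mice behind it was not given in the sources used here, and genotype, library and sort cannot be told apart. All differences between genotypes below are therefore values from 2 libraries, with no test, and their 95% intervals cover counting error only.

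The mesothelium is a sheet of cells with both epithelial and mesenchymal traits. Its cells carry keratins and junction proteins as an epithelium does, arise from mesoderm, secrete a slippery glycocalyx of mucin and hyaluronan, and need the transcription factor WT1 during development. In the adult they produce retinoic acid, complement and regulators of fibrinolysis, and in injured tissue they can take on features of fibroblasts.

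The *Pclaf* WT library held 30669 barcodes and 98171818 UMIs, and the *Pclaf* KO library 17172 barcodes and 111267567 UMIs. The labels state that 16000 cells were loaded for each group, fewer than the barcodes in either file. The median kept cell had 2127 UMIs in WT and 5957 in KO. The gap was smaller among mesothelial cells, whose median was 5421 UMIs in WT (lowest 596, highest 14084) and 6770 in KO (lowest 1590, highest 23672). Their median number of genes was 2449 in WT and 2761 in KO, and mitochondrial genes took a median of 3.77% and 3.83% of their UMIs. In sum, 391225 UMIs in WT and 1115848 in KO stood behind the mesothelial values. The libraries shared 163 barcodes, and 1 WT and 1 KO mesothelial barcode also occurred in the other library, though none was mesothelial in both.

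Before the results, the labels were checked. *Pclaf* was counted 3763 times in the kept WT cells, or 39.3 CPM (counts scaled to an equal total of UMIs), in 1261 cells. In the kept KO cells it was counted 529 times, or 5.19 CPM, in 254 cells. The gene was thus lower in the library labelled *Pclaf* KO but not at 0. The deleted part of the gene is not given in the sources used here, so 3′ tags outside that part would check nothing. *Mki67*, a marker of proliferation, was also lower, at 42.8 CPM in kept WT and 17.0 CPM in kept KO cells. The part of cycling cells in the *Pclaf* difference was not tested. In mesothelial cells *Pclaf* had 1 UMI in each library. The study's methods speak of male mice, yet cells with *Xist* and no Y-linked gene occurred in both libraries. Among mesothelial cells, 27 WT and 90 KO cells had *Xist* only, 26 WT and 39 KO cells had Y-linked genes only, 3 and 7 had both, and 17 and 16 had neither. Both libraries therefore held cells with either pattern, and their part in the differences between genotypes was not tested.

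The mesothelial share of kept cells was 0.242% in WT (exact Clopper-Pearson 95% interval 0.190% to 0.304%) and 0.972% in KO (0.824% to 1.14%). Kept cells with at least 1000 UMIs were also thinned to 1000 before the rule was applied, and shallower cells were left out. The shares were then 0.330% in WT (75 of 22746 cells) and 0.848% in KO (123 of 14503). The WT total was thus smaller than the 30187 kept cells, while the number of WT mesothelial cells stayed close to 73. The excluded genes removed more WT than KO cells. Of the cells with at least 2 of the 4 markers, 120 in WT and 171 in KO, 46 WT cells but 8 KO cells were left out for a UMI of an immune, endothelial or ciliated gene. Without that exclusion the shares were 0.394% and 1.02%. The KO share was the higher in each of these settings. Only 2 of the 73 WT and 40 of the 152 KO cells had any *Epcam* UMI, the surface protein of the sort. After thinning to 1000 UMIs, 1.43% of WT and 6.58% of KO mesothelial cells had an *Epcam* UMI, against 15.1% and 14.8% of alveolar type 2 (AT2) cells. An epithelial gate of this kind can set these shares, and its part in the difference was not tested.

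The 4 markers of the rule were well represented. *Upk3b*, an uroplakin of the mesothelial surface, was found in 73 of 73 WT and 149 of 152 KO cells. *Msln*, which encodes mesothelin, was found in 70 and 143 cells, *Lrrn4* in 65 and 136, and *Wt1* in 52 and 123. All 4 were detected in 48 WT and 104 KO cells, 3 in 18 and 39, and 2 in 7 and 9. Summed over mesothelial cells, *Msln* had 2377 CPM in the WT and 1751 CPM in the KO library, *Upk3b* 1562 and 1636, *Lrrn4* 601 and 669, and *Wt1* 304 and 397. Because each UMI is a 3′ tag that marks 1 captured transcript, CPM is not divided by gene length. In the annotation of genome build GRCm38 these genes lie at chr17:25748613-25754378 (*Msln*), chr5:136038496-136046487 (*Upk3b*), chr2:105126529-105173616 (*Wt1*) and chr2:132868305-132880891 (*Lrrn4*).

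The mesothelial label was checked with 10 genes the rule had not used, *Upk1b*, *Muc16*, *Krt19*, *Bnc1*, *Gpm6a*, *Nkain4*, *Rspo1*, *Aldh1a2*, *Cldn15* and *Pkhd1l1*. At least 2 of them were detected in 69 of 73 WT and 152 of 152 KO cells, and at least 7 in 62 and 139. The median was 8 of 10 in WT and 9 of 10 in KO, and all 10 were found together in 16 WT and 53 KO cells. The 4 WT cells with fewer than 2 of these genes went against the label. Just inside the threshold, cells with exactly 2 rule markers had a median of 4 of the 10 genes in WT (0 to 9) and 6 in KO (3 to 9). Just outside it, the 73 WT and 322 KO cells with exactly 1 rule marker had a median of 1 in each library, and 3 and 2 of them reached 4 genes.

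**Figure D1:**
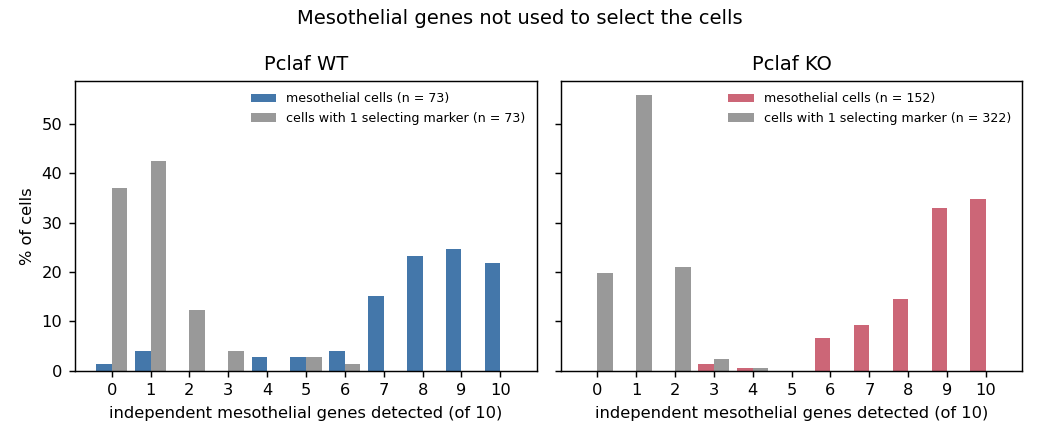
Number of the 10 mesothelial genes not used by the rule that were detected in a cell (x axis) against the percentage of cells (y axis), for mesothelial cells and for cells with exactly 1 rule marker, by library. Mesothelial cells centre on 8 genes in WT and 9 in KO, and cells with 1 marker centre on 1.

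The genes with the largest enrichment over all other kept cells, in the library where it was smaller, were described first. As the cells were chosen by expression, these values describe them and test nothing. *Muc16*, the large mucin of the mesothelial surface, had 946 and 1037 CPM in WT and KO mesothelial cells, against 3.33 and 1.84 CPM in the other cells. *Pkhd1l1*, which encodes a large membrane protein, was higher in mesothelial cells by 8.12 on the log2 scale in WT and 9.18 in KO. *Cldn15*, a claudin of tight junctions, was higher by 8.04 and 9.18. *Slurp1*, which encodes a small secreted protein, was higher by 7.87 and 9.52.

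The others of the 15 leading genes had varied roles. *Rspo1*, an enhancer of Wnt signalling, was higher than in the other cells by 7.57 (WT) and 7.89 (KO) on the log2 scale. *Sfrp2*, which encodes a secreted Wnt-binding protein, was higher by 7.21 and 7.95. *Aldh1a2*, the enzyme that makes retinoic acid from retinal, was higher by 7.29 and 8.74. The galectin gene *Lgals2* differed by 7.68 and 8.97 and *Gpm6a*, a membrane glycoprotein also made by neurons, by 7.69 and 8.28. The neuronal adhesion genes *Nxph1* (8.04 and 8.47) and *Il1rapl1* (7.93 and 7.31) also belonged to this group, as did *Fras1* (7.62 and 6.82), a gene for a basement membrane protein. The remaining leading genes were *Wdr17* (7.63 and 6.82), *Gm12381* (7.33 and 7.13) and *Tmem151a* (7.16 and 7.08). *Calb2*, the gene of calretinin, which is a mesothelial marker in pathology, had 0 UMIs in both libraries.

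To show which traits were epithelial and which mesenchymal, mesothelial cells were set beside adventitial-gene fibroblasts of the same library, taken as cells with at least 2 of *Pi16*, *Col14a1*, *Clec3b* and *Dpt* (933 in WT and 1647 in KO). The name gives the rule only, since these cells carried 4219 and 4709 CPM of the 4 alveolar fibroblast genes *Col13a1*, *Tcf21*, *Inmt* and *Npnt*, more than of their own 4 (1871 and 1769 CPM). The genes that defined these fibroblasts were left out of the count of genes. Of 5053 other genes with at least 50 UMIs over the mesothelial cells, 15.1% were at least 2-fold higher in mesothelial cells in both libraries. A further 4.2% were at least 2-fold lower in both. Of the 13 keratin and junction genes with enough UMIs, 12 were higher in both libraries, and the median was 4.46 (WT) and 3.68 (KO) on the log2 scale. *Krt19*, a keratin of simple epithelia, stood at 544 and 941 CPM in mesothelial cells against 8.73 and 16.9 CPM in adventitial-gene fibroblasts. *Krt8* stood at 266 and 349 CPM against 12.1 and 27.2, and its partner *Krt18* at 164 and 311 CPM against 6.68 and 28.3. Simple-epithelial keratin RNA was thus present in mesothelial cells at levels far above those in fibroblasts of the same libraries.

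Genes of matrix and mesenchymal transition had the opposite direction. Of 18 such genes, 1 was higher and 10 were lower than in adventitial-gene fibroblasts in both libraries, with a median of -1.49 in WT and -1.21 in KO. *Col1a1*, a chain of type I collagen, stood at 378 and 508 CPM in mesothelial cells and at 2149 and 1658 CPM in the fibroblasts. *Col3a1* stood at 1656 and 1858 CPM against 5435 and 4415. *Fn1*, fibronectin, stood at 158 and 109 CPM against 2160 and 1393. Mesothelial cells thus held collagen RNA, at a lower level than fibroblasts, and *Lum*, a proteoglycan gene of fibroblasts, had 0 UMIs in both mesothelial groups.

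Complement genes were described next. Of 11 complement genes, 5 were higher than in adventitial-gene fibroblasts in both libraries, with a median of 0.95 in WT and 1.56 in KO. *C3*, the central complement protein, stood at 6127 and 5577 CPM in mesothelial cells against 1107 and 1045 CPM in the fibroblasts. Of 9 genes of antimicrobial and acute-phase defence, 5 were higher and 3 lower than in adventitial-gene fibroblasts in both libraries. The defence list summed to 2640 and 2973 CPM in mesothelial cells, against 2473 and 6438 CPM in all other kept cells, with *Orm1* at 0 in both libraries, *Saa1* and *Lyz1* at 0 in WT, and *S100a8* and *S100a9* at 0 in KO. *Slpi*, an inhibitor of leukocyte proteases, made up most of the mesothelial sum, at 1753 and 1857 CPM against 12.6 and 5.97 in the fibroblasts. *Igfbp5*, an insulin-like growth factor binding protein, stood at 7548 and 7356 CPM against 289 and 161. Against alveolar-gene fibroblasts, taken in the same way with those 4 genes, of which they held 5120 and 5126 CPM, 15.1% of genes were higher and 4% lower in both libraries. Against cells with at least 2 of the AT1 genes *Ager*, *Akap5*, *Rtkn2* and *Hopx*, 18.7% were higher and 3.01% lower. Of the 13 keratin and junction genes, 5 were higher and 2 lower than in those cells in both libraries. Their median there was -0.40 in WT and -0.33 in KO.

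**Figure D2:**
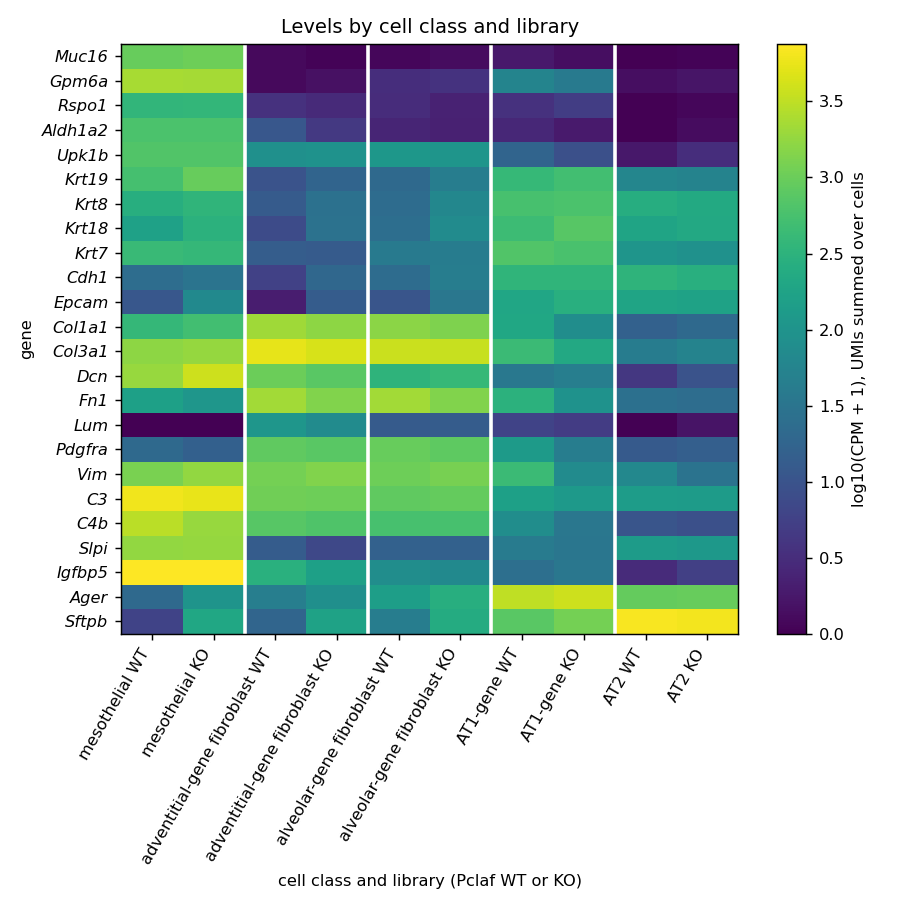
Summed level (colour, log10 of CPM + 1) of genes of the lists in each cell class and library. In both libraries the keratin genes *Krt19*, *Krt8* and *Krt18* are higher in mesothelial cells than in fibroblasts and *Col1a1*, *Col3a1* and *Fn1* are lower.

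The second question was how mesothelial cells of the *Pclaf* KO library compared with those of the WT library. Over 5055 genes with at least 50 UMIs in both groups together, 193 (3.82%) were at least 2-fold higher and 98 (1.94%) at least 2-fold lower in KO, and the median was -0.07 on the log2 scale, with 2221 genes above 0. With TMM factors, another scaling of the libraries, 252 were higher and 56 lower. Many of the extreme genes belonged to other cell types. When only the 2489 genes with a higher CPM in mesothelial cells than in the other kept cells of each library were counted, 62 (2.49%) were higher and 47 (1.89%) lower, with a median of -0.17.

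The genes used to check the label differed little, while some other leading mesothelial genes were lower in KO. None of the 10 independent mesothelial genes reached a 2-fold difference, and their median log2 ratio was 0.04. *Upk1b* had 657 CPM in WT and 660 CPM in KO, a log2 ratio of 0.01 (-0.20 to 0.22), and *Aldh1a2* had 601 and 611 CPM, a ratio of 0.03 (-0.19 to 0.25). *Gpm6a* had 2362 and 2257 CPM (-0.07, -0.17 to 0.05). *Krt19* departed most, with 544 and 941 CPM (0.79, 0.58 to 1.01). After thinning to 1000 UMIs it was detected in 31.4% of WT (22 of 70 cells) and 55.9% of KO mesothelial cells (85 of 152), with 3.27% and 4.21% of AT2 cells beside them. Of other keratins, *Krt18* had a ratio of 0.93 (0.54 to 1.33), while *Krt7* had -0.18 (-0.44 to 0.09). Of the 15 leading genes above, *Gm12381* was past 2-fold, with 148 and 55.6 CPM (-1.42, -1.96 to -0.87). Its ratio turned to 0.69 when the limits on genes per cell were read as limits on UMIs. *Slurp1* (-0.83, -0.99 to -0.66), *Fras1* (-0.79, -0.97 to -0.60), *Nxph1* (-0.58, -0.90 to -0.25) and *Lgals2* (-0.47, -0.81 to -0.12) also had intervals below 0.

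RNA of other cell types also differed between the libraries, and its part in the differences was not tested. The club-cell list, led by *Scgb1a1*, the main secretory protein of airway club cells, summed to 2692 and 17216 CPM in WT and KO mesothelial cells. All 5 genes of the list were at least 2-fold higher in KO, beside 3.82% of all genes tested. Their median of 5.62 turned to -1.05 when cells were thinned before the rule. Most of the club-cell RNA sat in a few cells, since 3 KO cells held 16239 of 17429 *Scgb1a1* UMIs (93.2%) and 1 WT cell held 970 of 1031. The difference was not limited to them, as the median mesothelial cell had 147 CPM of *Scgb1a1* in WT and 1065 CPM in KO. After thinning to 1000 UMIs it was detected in 21.4% of WT and 61.2% of KO mesothelial cells, beside 21.2% and 68.2% of AT2 cells. In adventitial-gene fibroblasts the club-cell list summed to 209 and 7285 CPM. The AT2 list summed to 1186 and 4519 CPM, with *Lyz2* the most abundant in WT (961 CPM) and *Sftpc*, surfactant protein C, in KO (2410 CPM), and with *Sftpd* and *Slc34a2* at 0 in WT. The AT2 list summed to 874 and 3908 CPM in adventitial-gene fibroblasts of the same libraries. *Sftpc* was absent from 47 WT and 0 KO mesothelial cells.

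Immune genes were lower in KO, a direction that turned when doublets called by Scrublet were left out (median log2 ratio of -1.72 with them and 1.00 without). The immune list, led by *Lyz2*, summed to 1822 and 1270 CPM, with *S100a8* and *Il1b* at 0 in KO. Of the 6 genes with enough UMIs, 4 were at least 2-fold lower, beside 1.94% of all genes tested. *S100a8*, a neutrophil calprotectin gene, had 71 of its 78 WT UMIs in 1 cell. The endothelial list summed to 481 and 286 CPM, led by *Kdr*, the mural list to 279 and 69.0 CPM, and the fibroblast list to 5608 and 8081 CPM, led by *Dcn*. *Kdr* alone had 307 and 235 CPM and was higher in mesothelial cells than in the other kept cells of each library. It was higher than in adventitial-gene fibroblasts by 5.64 and 7.01 on the log2 scale, so its RNA is not simply that of other cell types. Club, AT2 and immune genes together took at least 2% of the UMIs of 2 WT and 9 KO cells, at most 10.5% and 43.8% of a cell.

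The 10 genes with the highest KO to WT ratio were mostly genes of secretory airway and alveolar cells. *Scgb3a1* had a log2 ratio of 7.56, with 98.0% of its KO UMIs in 1 cell, *Cyp2f2* of 6.28 with 52.7%, *Cxcl15* of 5.96, *Ltf* of 5.60 with 92.0% of its KO UMIs in 1 cell, *Sftpb* of 5.29, *Hp* of 5.17 with 68.2% and *Sftpc* of 4.33. *Bpifa1* and *Reg3g* had 0 UMIs in WT and were higher by at least 5.62 and 4.53 against a floor of 3 UMIs, with 99.5% of the KO UMIs of each in 1 cell. *Ank3*, an ankyrin gene, had 4.54. With the limits on genes per cell read as limits on UMIs, the ratio of *Hp* turned to -0.061.

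Among the 10 lowest, *S100a9* and *S100a8* had 0 UMIs in KO and had log2 ratios of -6.60 and -6.21 or lower against the floor, with 93.1% and 91.0% of their WT UMIs in 1 cell, and *Tyrobp* (-2.78), *Fcer1g* (-2.18) and *H2-Aa* (-1.91) are genes of immune cells. The few KO UMIs of *Tyrobp* and *Fcer1g* were also mostly in 1 cell (85.0% of 20 and 78.1% of 32). *Iigp1*, an interferon-induced GTPase, had 225 and 33.2 CPM (-2.76, -3.36 to -2.19) and was found in 25 of 73 and 34 of 152 cells. The others were *Gpc6* (-1.73), *Negr1* (-1.73), *Lhfpl3* (-1.69) and *Bhlhe40* (-1.62).

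**Figure D3:**
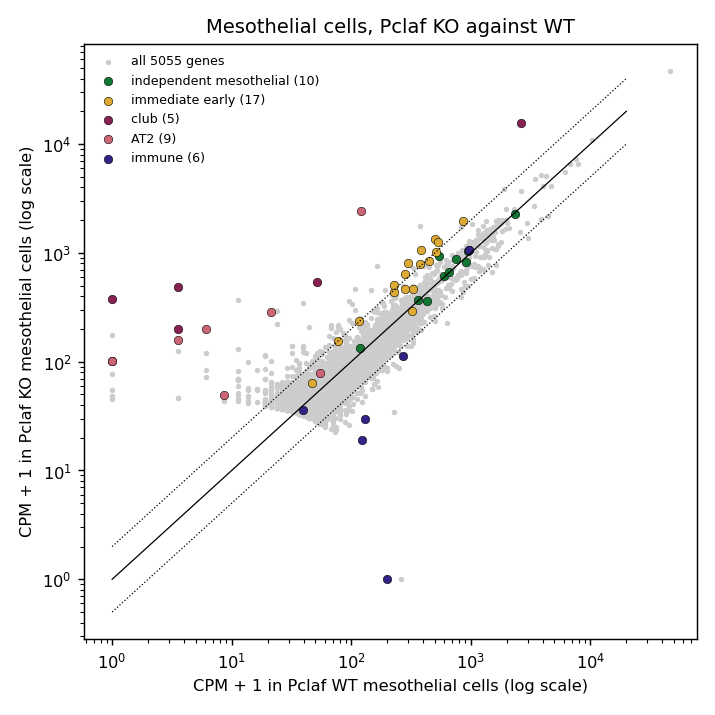
CPM + 1 of each gene in mesothelial cells of the WT library (x axis, log scale) against the KO library (y axis, log scale), with the list genes coloured. The independent mesothelial genes lie near the line of equal levels, and the club genes and most AT2 genes lie above it.

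Immediate-early genes, the transcription factors and phosphatases that cells switch on within minutes of a stimulus, were higher in KO mesothelial cells as a group. All 17 had enough UMIs, and the median was 1.03. Of these, 10 were at least 2-fold higher and none 2-fold lower, beside 3.82% and 1.94% of all genes tested. Summed over the list, WT cells had 5810 and KO cells 12330 CPM, a log2 ratio of 1.09 (1.02 to 1.15). The values per cell overlapped widely, with a lowest, median and highest of 0, 3618 and 19386 CPM in WT and of 381, 9513 and 52757 CPM in KO. *Fos*, a subunit of AP-1, had 864 and 1951 CPM (1.18), and its partners *Jun* 501 and 1333 CPM (1.41) and *Junb* 297 and 800 CPM (1.43). *Atf3*, a stress-induced repressor, had 386 and 1058 CPM (1.46), and after thinning it was detected in 22.9% of WT and 46.7% of KO cells, beside 16.5% and 10.2% of AT2 cells. *Klf6* (-0.14) and *Socs3* (0.45) did not share the 2-fold difference.

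The same list had smaller ratios between the libraries in other cell classes, of which the fibroblast groups, as their markers show, were not cleanly separate. In adventitial-gene fibroblasts it summed to 6362 and 7955 CPM, a log2 ratio of 0.32, and in alveolar-gene fibroblasts to 5531 and 7420 CPM, a ratio of 0.42. In AT2 cells it summed to 4035 and 3123 CPM, a ratio of -0.37. Whether the mesothelial difference exceeded these could not be tested with 1 library of each genotype.

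**Figure D4:**
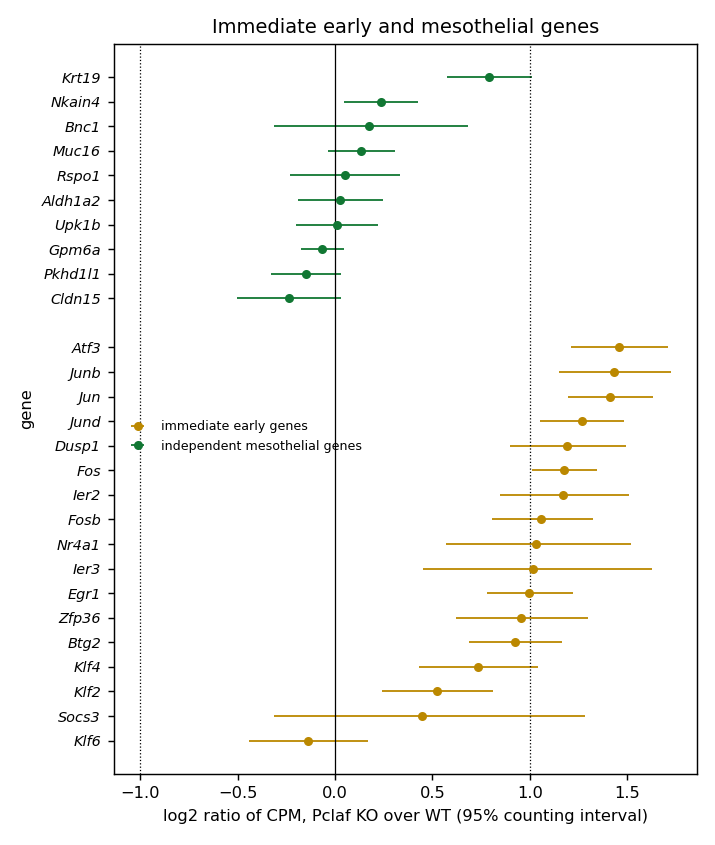
Log2 ratio of CPM, *Pclaf* KO over WT, in mesothelial cells for each of the 10 independent mesothelial genes (top) and 17 immediate-early genes (bottom), with 95% counting intervals. Of the immediate-early genes 10 lie above 1, and of the mesothelial genes none does.

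Growth factor, coagulation and interferon genes held a few large differences among many small ones. *Fgf1*, an acidic fibroblast growth factor, had 30.7 and 137 CPM (2.16, 1.31 to 3.14), and *Fgf9*, which mesothelium supplies to the growing lung, 23.0 and 46.6 CPM (1.02, -0.02 to 2.23). Of the 15 growth factor genes with enough UMIs, 9 had ratios below 0, beside a median of -0.07 over all genes tested and 2221 of those 5055 above 0. They included *Sfrp1* (-0.92, -1.32 to -0.50), *Fgf2* (-0.91, -1.71 to -0.08) and *Tgfb2* (-0.48, -0.76 to -0.20), and the median of the list was -0.07. Of 8 genes of fibrinolysis and coagulation, 3 were at least 2-fold higher, beside 3.82% of all genes tested, among them *Plat*, tissue plasminogen activator, with 10.2 and 66.3 CPM (2.70, 1.28 to 4.61), and *Thbd*, thrombomodulin, with 51.1 and 112 CPM (1.13, 0.44 to 1.89). The WT value of *Plat* rested on 4 UMIs. Of 14 antigen presentation and interferon genes, 9 had ratios below 0, to be read beside the same balance over all genes, and the median was -0.23. Of these 9, *B2m*, which pairs with MHC class I, had 1618 and 1080 CPM (-0.58, -0.72 to -0.44) and *H2-K1*, an MHC class I gene, 1508 and 1108 CPM (-0.45, -0.59 to -0.30). Other cell classes shared the direction. The summed list had a log2 ratio of -0.17 in mesothelial cells, -0.18 in adventitial-gene and -0.17 in alveolar-gene fibroblasts. It had -0.50 in cells with AT1 genes and -0.28 in AT2 cells. In this list 2 genes were at least 2-fold higher, beside 3.82% of all genes tested. They were *Bst2*, tetherin, with 146 and 452 CPM (1.63, 1.24 to 2.05) and *Isg15* with 10.2 and 42.1 CPM (2.04, 0.59 to 3.98). *Igfbp4*, an insulin-like growth factor binding protein, had 99.7 and 338 CPM (1.76) and was the 1 of 4 such genes past 2-fold, beside that 3.82%. *Igfbp6* (0.46, 0.37 to 0.54) and *Igfbp7* (0.47, 0.26 to 0.67) also had intervals above 0.

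Glycocalyx and matrix genes held differences of either direction, while most complement genes were lower in KO. Over all genes tested, 3.82% were at least 2-fold higher and 1.94% lower, to be read beside each count in this paragraph. Of 7 glycocalyx genes with enough UMIs, 1 was at least 2-fold higher and 2 were lower, with a median of -0.35. *Gpc3*, a heparan sulfate proteoglycan, had 4404 and 2184 CPM (-1.01, -1.10 to -0.92), *Has1*, a hyaluronan synthase, had 120 and 57.4 CPM (-1.07, -1.63 to -0.49), and *Podxl* was higher (1.01). None of the 18 matrix and mesenchymal genes of the list reached 2-fold, and their median was -0.15. Outside that list, *Dcn*, decorin, a gene of the fibroblast list, had 1899 and 3883 CPM (1.03, 0.92 to 1.15), and *Eln*, elastin, which is in no list and was named after its values were seen, had 1506 and 663 CPM (-1.18, -1.34 to -1.02). Of 11 complement genes, 8 had intervals below 0 and 0 had intervals above it, beside 652 and 445 of all 5055 genes tested. The summed log2 ratio of the list was -0.25 (-0.30 to -0.21). Only *C1qa*, a macrophage gene, passed 2-fold (-1.30), with 97.7% of its KO UMIs in 1 cell, while *C4b* stood at 2947 and 1872 CPM (-0.65, -0.76 to -0.55). None of 5 retinoic acid genes, 12 stress and p53 genes or 3 chloride intracellular channel genes passed 2-fold, with medians of 0.03, 0.10 and 0.38. Among 14 transcription factors, *Osr1* alone passed it.

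Cell cycle genes were described by their UMIs only. *Mki67* had 0 UMIs in WT mesothelial cells and 31 in KO, of which 96.8% were in 1 cell. A cell without an *Mki67* UMI may still cycle, so no share of cycling cells was drawn from these counts. Of 25 cell cycle genes, 5 had at least 50 UMIs, none passed 2-fold, and their median was 0.59.

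Among genes higher in mesothelial cells than in the rest of each library, the 10 with the highest KO to WT ratio were found in some KO cells and few WT cells. *Slc6a4*, the serotonin transporter (chr11:76998603-77032340), had 5.11 CPM in WT, from 2 cells, and 83.3 CPM in KO, from 52 cells, a log2 ratio of 4.03 (2.13 to 7.09). *Sntg1*, a syntrophin (chr1:8361475-9299878), had 23.0 and 289 CPM, from 5 and 52 cells (3.65, 2.71 to 4.79). *Rbfox1*, an RNA splicing factor (chr16:5885355-7411526), had 38.3 and 346 CPM, from 9 and 65 cells (3.17, 2.43 to 4.02). *Osr1*, a zinc finger transcription factor of mesoderm (chr12:9570116-9581500), had 17.9 and 115 CPM, from 6 and 56 cells (2.68, 1.60 to 4.02). The other members were *Dlgap1* and *Zfp804b* (4.16 each), *Pcdh15* (2.95), *Vit* (2.75), *Krt14* (2.75) and *Tm4sf5* (2.74), and 41 of the 77 KO UMIs of *Krt14* came from 1 cell. As these genes were chosen for their KO to WT ratio, the ratio itself is a description.

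The choice of these 10 KO-led genes fixes that KO cells hold more of them than WT cells, so only their spread within the KO library adds to it. At least 4 of them were detected in 53 of 152 KO cells (34.9%, 27.3% to 43.0%) and in 2 of 73 WT cells. After thinning to 1000 UMIs, 6 of 152 KO and 0 of 70 WT cells had at least 4, and a count of 0 in 70 allows up to 4.29% (3 counts of 70, with an exact upper limit of 5.13%). At least 2 were detected in 66.4% of KO and 9.59% of WT cells, and in 28.3% and 4.29% after thinning. Cells with at most 1 numbered 51 in KO and 66 in WT, and cells with 2 or 3 numbered 48 and 5. The median depth of the KO cells was 6680 UMIs with at least 4 genes, 7289.5 with 2 or 3 and 6743 with at most 1. The median number of independent mesothelial genes was 9 in each KO set. Cells with *Xist* only and with Y-linked genes only numbered 33 and 15 among KO cells with at least 4 genes and 27 and 16 among those with at most 1, so both patterns occurred in each.

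The split of the KO cells was then described by other genes. Relative to KO cells with at most 1 of the 10 genes, those with at least 4 had higher *Csrp2*, a LIM protein of contractile cells, at 1492 against 254 CPM (2.55, 2.24 to 2.88), with 127 CPM in WT cells with at most 1. *Fndc1*, a fibronectin domain gene, had 642 against 55.0 CPM (3.54, 2.90 to 4.26; WT 60.6), and *Meg3*, a long non-coding RNA, 458 against 39.3 CPM (3.54; WT 49.0). *Fgf1* had 311 against 15.7 CPM (4.31; WT 8.65), *Igfbp4* 620 against 136 CPM (2.19; WT 57.7), *Bst2* 706 against 220 CPM (1.68; WT 121) and *Dcn* 6282 against 2368 CPM (1.41; WT 1883). These 7 genes were picked for being higher in KO or in this split, so their order over the cells is a description. KO and WT cells with at most 1 did not match throughout. *Saa3* had 5.24 CPM in these KO and 43.3 CPM in these WT cells (-3.05, -6.22 to -0.94), the KO value from 2 UMIs. *Tmem119* had 15.7 and 46.1 CPM (-1.55, -3.20 to -0.13), while *Csrp2* went the other way (1.00, 0.47 to 1.55). A choice by this split favours low values in these KO cells. The immediate-early sum was 17395 CPM in KO cells with at least 4 genes, 11318 with 2 or 3 and 8546 with at most 1. In WT cells it was 5851 CPM with at most 1, 4754 with 2 or 3 (5 cells) and 7980 with at least 4 (2 cells), so the order did not hold there.

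A set of genes had the opposite pattern. The 10 genes lowest in KO cells with at least 4 relative to those with at most 1 were *AU021092*, *Slurp1*, *Myl7*, *Col4a4*, *Lbp*, *Ephb1*, *Sfmbt2*, *Trabd2b*, *Tgfb2* and *Slco2a1*, and WT cells entered their choice only through the KO-led genes that split the KO cells. *AU021092* (chr16:5211823-5222299) had 11.1 CPM in KO cells with at least 4 genes, 453 CPM in those with at most 1 and 551 CPM in WT cells with at most 1. *Slurp1* (chr15:74724318-74728034) had 44.5, 1158 and 1375 CPM in the same order. *Col4a4*, a chain of basement membrane collagen (chr1:82448423-82586849), had 27.8, 495 and 522 CPM, *Tgfb2*, a transforming growth factor (chr1:186622792-186705989), 69.5, 579 and 447 CPM, and *Slco2a1*, a prostaglandin transporter (chr9:102988712-103096002), 80.6, 663 and 900 CPM. The genes were chosen for a low level in the first of these groups relative to the second, so both levels entered the choice. The choice thus favours a high level in KO cells with at most 1 KO-led gene. The ratios of those cells to WT cells are therefore a description. Between the KO and WT cells with at most 1 KO-led gene, the log2 ratio was -0.28 (-0.59 to 0.023) for *AU021092*, -0.25 (-0.44 to -0.059) for *Slurp1*, -0.076 (-0.38 to 0.23) for *Col4a4*, 0.37 (0.070 to 0.68) for *Tgfb2* and -0.44 (-0.69 to -0.20) for *Slco2a1*. For the rest of the set the ratio was -0.57 (-1.06 to -0.084) for *Lbp*, -0.48 for *Sfmbt2*, -0.35 for *Ephb1*, -0.074 for *Trabd2b* and 0.38 for *Myl7*. Among other genes, *Grip1* had 367, 2609 and 3201 CPM and *Gpc3* 1009, 3379 and 4749 CPM.

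Not all mesothelial genes followed. *C3* had 5593, 5796 and 6272 CPM in KO cells with at least 4 genes, KO cells with at most 1 and WT cells with at most 1. *Muc16* had 1170, 807 and 937 CPM in the same order. The markers of the rule chose the cells, so their levels in these groups are a description only. *Upk3b* had 1659, 1616 and 1638 CPM. *Msln*, at 1059, 2389 and 2483 CPM, had the lower value in the first of these groups, and *Wt1*, at 620, 309 and 294 CPM, the higher.

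Counted per cell, at least 4 of the 10 opposite genes were detected in 59 of 73 WT cells (80.8%) and 65 of 152 KO cells (42.8%), and at most 1 in 9 and 54 cells. With both sets together, 56 WT cells (76.7%) and 38 KO cells (25%) had at most 1 KO-led gene and at least 4 opposite genes. The reverse, at least 4 KO-led genes and at most 1 opposite gene, was found in 1 WT cell and 36 KO cells (23.7%). Cells with at least 4 of both numbered 1 in WT and 4 in KO, and cells with at most 1 of both 7 and 5. The choice of both sets favours few cells with many genes of both, and few WT cells with many KO-led genes, so these counts describe the cells and test nothing.

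**Figure D5:**
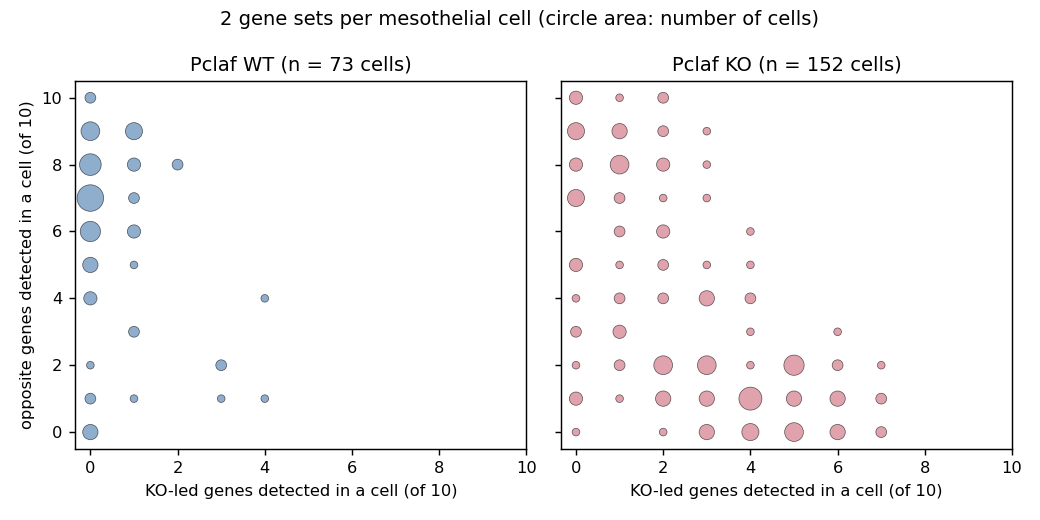
Number of the 10 KO-led genes (x axis) and of the 10 opposite genes (y axis) detected in each mesothelial cell, with circle area for the number of cells, by library. At most 1 KO-led and at least 4 opposite genes were found in 56 of 73 WT and 38 of 152 KO cells, and the reverse in 1 and 36, an arrangement that the choice of the genes favours.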

How the data were processed

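The raw count of UMIs for each of 31053 genes and each barcode was deposited by the authors as 1 10x matrix per library (3′ chemistry). The submitters' processing notes name Cell Ranger 3.1.0 and STAR, while the matrix headers give version 5.0.0, and the mouse genome was build mm10. No values were normalized before deposit. The authors' stated cell limits (more than 200 and fewer than 5000 detected, under 20% mitochondrial) were read as genes. Counts were summed over the mesothelial cells of each library and divided by their total UMIs to give CPM. With 1 library per genotype no test was run. Log2 ratios of CPM have exact 95% conditional Poisson intervals and shares have exact Clopper-Pearson intervals, and both cover counting error only. A ratio was counted at 2-fold or more in genes with at least 50 UMIs, and a library at 0 was set to a floor of 3 UMIs. Named genes were those of the lists, the 15 most enriched over other cells in both libraries, and the 10 highest and 10 lowest ratios of KO to WT. The 4 markers of the rule were left out of these, while *Sftpc*, which the rule also limited, was kept. The KO-led and opposite sets and the genes described with them were chosen after their values were seen. The cells and lists were chosen with earlier results of these data known. The calculation of the ratios was checked on simulated data, which is no test of a difference between genotypes. Doublets were called with Scrublet at an expected 0.8% per 1000 cells (2642 WT and 422 KO cells, 10 and 4 of them mesothelial) and were kept. Thinning drew 1000 UMIs per cell and left out cells with fewer. Python 3.11.15, numpy 2.4.6, scipy 1.17.1 and, for TMM factors, edgeR 4.0.16 were used. Gene positions are from GENCODE vM21 (GRCm38). The result of 1 listed gene is not reported here.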

Additional observations from a re-analysis of the deposited data

Results flagged for a closer look

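Cells left out by the rule still carried mesothelial RNA. Of the kept cells with at least 2 rule markers that were left out, 44 of 47 in WT and 18 of 19 in KO had at least 2 of the 10 independent mesothelial genes. They drew attention because they hold a mesothelial signal outside the cells described. Their median was 7574 UMIs in WT and 10126 in KO. In WT, 23 of them had *Ptprc*, 26 *Pecam1* and 22 *Cdh5*, and in KO 3 had *Ptprc*, 4 *Pecam1*, 3 *Foxj1* and 11 had *Sftpc* at 5% or more.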

How the results depend on the processing

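With the limits read as UMIs, the mesothelial share was 0.140% in WT and 0.629% in KO, 44 genes were 2-fold higher and 48 lower, and *Gm12381* (0.69), *Gm20400* (0.52) and *Hp* (-0.061) changed sign. Thinning before the rule gave a WT share of 0.330% and a club median of -1.05, which reverses it, and without the excluded genes the WT share was 0.394%. Minimums of 20 and 100 UMIs gave 557 and 92 genes higher and 342 and 42 lower. TMM factors gave 252 higher and 56 lower, and genes above the rest of the library gave 62 and 47. In cells with at most 1 KO-led gene, an alternative chosen after seeing the data, 45 genes were higher and 39 lower, the immediate-early median was 0.54, and *Sntg1* was at -1.36. Without Scrublet doublets the immune median was 1.00, also reversed. *Krt19* was detected in 92.1% of KO and 68.5% of WT cells without thinning and in 72% and 53.1% at 2000 UMIs. After thinning, 94.7% of KO cells had 2 independent genes and 28.3% (66.4% without thinning) had at least 2 KO-led genes. The causes were not tested. The other 96 main values and 1260 of 1371 other values stayed within the limits set, although 2 and 33 of these, none at 2-fold on either side, took the other sign. Among them the median of the independent mesothelial genes was -0.10 with limits as UMIs. Leaving out a replicate was not possible, and no paired analysis was possible because each genotype had 1 library. In genes with few UMIs the counting intervals are wide.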
